A study of Rattus norvegicus with 12 samples.

Results

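The response to TNF-alpha of rat aortic rings cultured in fibrin gel was measured as the difference between 3 arrays of treated rings and 3 arrays of untreated rings, which are 6 of the 12 arrays of the study. The arrays were chosen by their sample titles alone. An aortic ring is a slice of aorta kept in a gel, where endothelial cells sprout from it together with smooth muscle cells, fibroblasts and macrophages of the vessel wall. All rings came from male Fisher 344 rats aged 1 to 2 months and were kept in EBM, an endothelial basal medium, without serum. The treated group received recombinant rat TNF-alpha at 10 ng/ml, the control group received none, and RNA of both groups was taken at day 2. A sample pools the RNA of 4 to 6 rings, of which 200 ng went onto 1 Affymetrix whole-transcript array. The other 6 arrays are the same treated and untreated groups in collagen gel, with 3 arrays each. They enter here through the shared estimate of the spread and through the test of whether the response differed between the gels. The titles call the replicates biological, but no label ties them to separate rats; the p-values below therefore reflect the scatter among these 6 or 12 samples, which may be technical. A tissue label of the fibrin samples speaks of collagen gels, while their titles, source names, descriptions and treatment labels all name fibrin.

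TNF is an inflammatory cytokine that binds the receptors TNFR1 and TNFR2. TNFR1 frees the transcription factor NF-kB from its inhibitors, and NF-kB then induces adhesion molecules, chemokines, cytokines and its own inhibitors, which limit the response. In vessels TNF makes the endothelium bind leukocytes and makes smooth muscle cells and fibroblasts of the wall secrete chemokines and matrix proteases. In ring cultures it is studied as a regulator of sprouting, and fibrin, the clot protein, is the gel that stands for the provisional matrix of a wound.

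The deposited values are levels on a log2 scale, and the medians of the 6 fibrin arrays lay between 5.89 and 5.93. The first principal component of these arrays held 41.8% of the variance and separated the groups, with scores of -5.69, -13.3 and -14.3 on control arrays 1, 2 and 3 and 17.6, 5.14 and 10.5 on TNF arrays 1, 2 and 3. Markers of the cells expected in a ring were present: the endothelial cadherin gene Cdh5 lay between 7.89 and 8.29 on the 6 arrays, the smooth muscle myosin gene Myh11 between 9.97 and 10.60, and the fibroblast receptor gene Pdgfra between 11.16 and 11.46. None of these 3 genes passed the test for TNF, and Pecam1, Kdr and Acta2 are not analysed here. The mean level of the marker lists of neutrophils, T and NK cells, B cells and mast cells was between 4.07 and 4.78 on each array. These means lay inside the range of the lowest of 3 equal classes of genes by level (1.90 to 5.41). Single members can lie above it, as Cd69 of the T and NK list did on the TNF arrays. TNF array 3 stood apart in the haemoglobin genes, with Hbb at 8.42 against 5.70 to 6.36 on the other 5 arrays and Hbb-b1 at 8.27 against 4.29 to 5.09. The part of this in any result was not tested; counts without TNF array 3 stand beside the results they touch. In whole cultures fewer cells of a type and less RNA per cell cannot be told apart.

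Of 14324 genes tested, 448 passed an adjusted p of 0.05 (3.13%), 237 of them higher with TNF (1.65%) and 211 lower (1.47%). A gene that passed is said below to have risen or fallen. Counts in the gene lists below are to be read against the 3.13%, 1.65% and 1.47% of all genes. At an unadjusted p under 0.05 there were 2192. The 3 control and 3 TNF arrays did not overlap for 2599 genes (18.1%), among them 447 of the 448. All 448 had the same sign in the 3 pairs of equal replicate number, which groups that do not overlap must have. Most changes were modest. The median log2 difference was 0.51 for genes that rose and -0.60 for those that fell, 197 of the 448 changed by less than 0.5, and 26 rose and 19 fell by more than 1. Over all genes the median was 0.01, with quartiles of -0.08 and 0.10. The lowest of these 3 classes gave 29 higher and 14 lower, against 103 and 99 in the middle class and 105 and 98 in the highest. The number of calls depended on single arrays: without control array 2 or 3 it was 242 or 237, and without TNF array 1 or 3 it was 255 or 287. Of the 448, 182 were called in all 14 alternative fits that tested them (106 higher and 76 lower), which include leaving out each fibrin array in turn. Genes named below as risen or fallen belong to these 182 unless the arrays or settings that end the call are given.

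**Figure D1:**
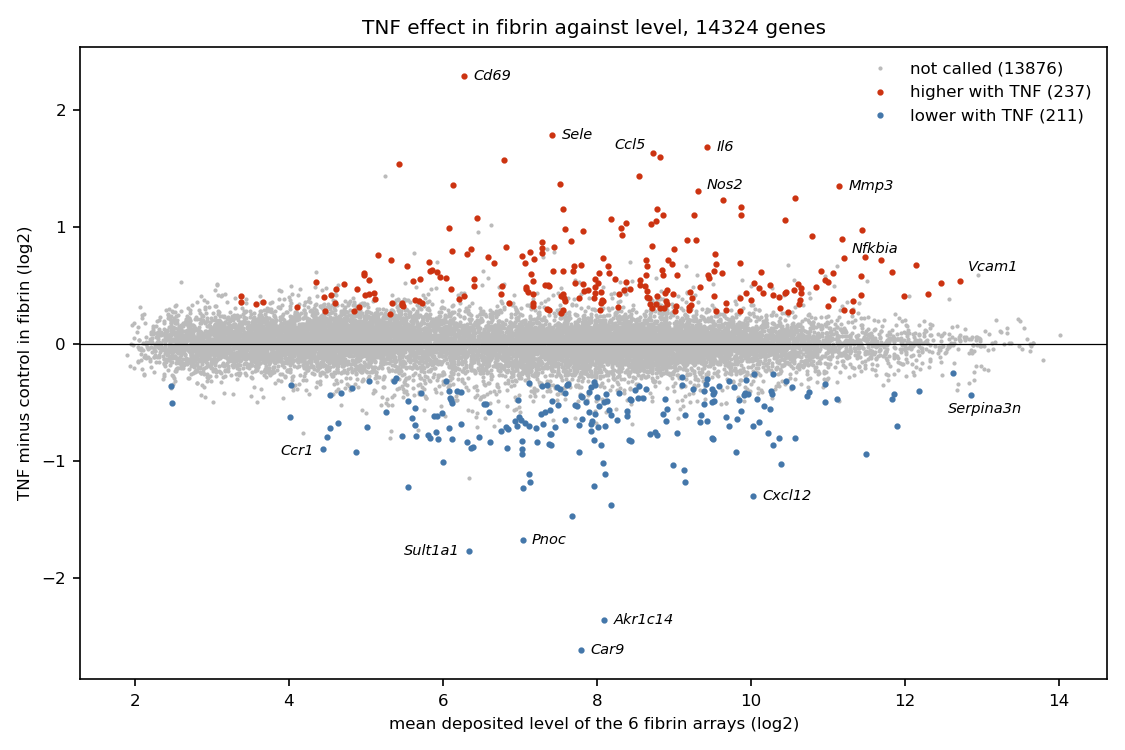
Log2 difference between TNF and control in fibrin against the mean level on the 6 fibrin arrays (log2), 1 point per gene. The 237 genes that rose are red and the 211 that fell are blue; Cd69 lies highest at 2.29 and Car9 lowest at -2.62, and called genes occur across the whole range of levels.

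The largest increase was that of Cd69. This gene, an early activation antigen of lymphocytes and other leukocytes, was at 5.50, 5.11 and 4.77 on control arrays 1, 2 and 3 and at 7.60, 7.49 and 7.16 on TNF arrays 1, 2 and 3. All 3 treated values were above all 3 untreated ones, a 4.90-fold increase (log2 difference 2.29 ± 0.21 SE, adjusted p = 1.04e-04). The interleukin gene Il6 was at 9.08, 8.52 and 8.17 without TNF and at 10.56, 10.07 and 10.19 with it, a 3.21-fold increase (1.68 ± 0.23, adjusted p = 0.00167). Abcb1b, which encodes a P-glycoprotein that pumps drugs and lipids out of cells, rose 3.03-fold (1.60 ± 0.11, adjusted p = 1.36e-05), from 7.95 to 8.08 on the control arrays to 9.39 to 9.82 on the TNF arrays. Ereg, the EGF receptor ligand epiregulin, rose by 1.57 ± 0.24, with TNF array 1 highest at 8.23 and the other treated arrays at 7.10 and 7.40. Also among the largest increases were Lypd8l1 (1.54 ± 0.13) and the carboxylesterase gene Ces1f (1.43 ± 0.14). So were Faah, the hydrolase that breaks down the endocannabinoid anandamide (1.36 ± 0.12), and Ampd3, an AMP deaminase (1.17 ± 0.11). Lypd8l1, Ces1f, Faah and Ampd3 belong to none of the pathways described below. Ces1f is one of a family of near-identical genes and is uncertain as a single gene.

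The largest decreases were those of Car9 and Akr1c14. Car9, a carbonic anhydrase at the cell surface that hypoxia induces, was at 8.36, 9.09 and 9.86 on control arrays 1, 2 and 3 and at 6.28, 6.80 and 6.38 on the TNF arrays. The untreated values spread over 1.5 log2 units and still did not overlap with the treated ones; Car9 fell 6.14-fold (-2.62 ± 0.33, adjusted p = 8.78e-04). Akr1c14, a 3-alpha-hydroxysteroid dehydrogenase, was at 9.10, 9.39 and 9.33 without TNF and at 6.63, 7.26 and 6.87 with it, a 5.11-fold decrease (-2.35 ± 0.15, adjusted p = 1.11e-05). A pair of opioid-family peptide precursors fell: Pnoc, for nociceptin, by 3.20-fold (-1.68 ± 0.10, adjusted p = 1.11e-05), with 7.79 to 7.98 on the control arrays and 6.16 to 6.24 on the TNF arrays, and Penk, for the enkephalins, by 2.16-fold (-1.11 ± 0.13). Slc43a3, a purine nucleobase transporter, fell (-1.47 ± 0.26), and TNF array 1 was the lowest at 6.19, with the other treated arrays at 7.45 and 7.18. The ligand gene Wnt16 fell by 2.60-fold (-1.38 ± 0.15). Pdk4, a kinase that restrains the entry of pyruvate into the citric acid cycle, fell by 2.32-fold (-1.22 ± 0.18), and the serotonin receptor gene Htr2b by 2.16-fold (-1.11 ± 0.14). Lrrc17 (-1.18 ± 0.19) and the aldehyde oxidase gene Aox3 (-1.22 ± 0.15) also fell.

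**Figure D2:**
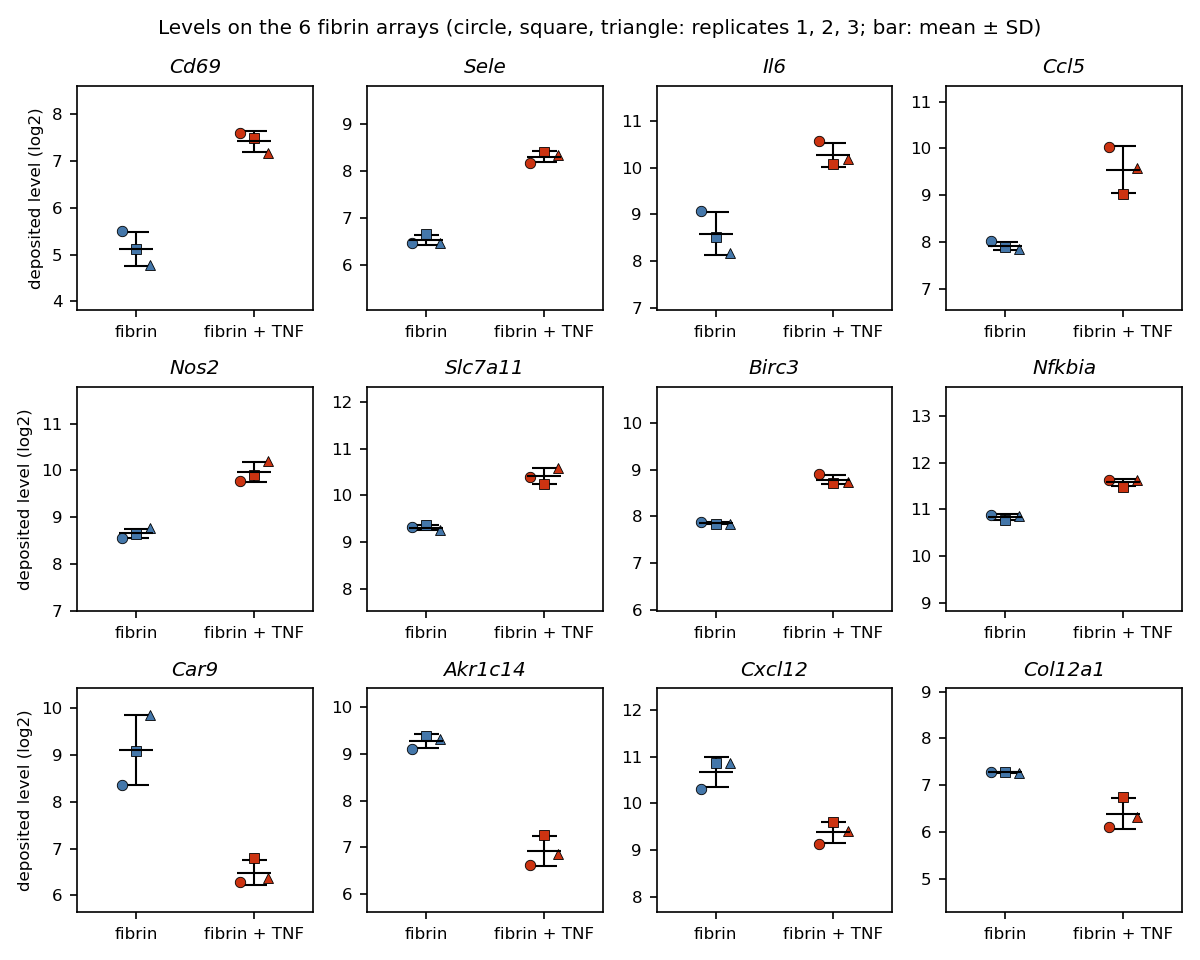
Deposited levels (log2) of 12 genes on the 6 fibrin arrays, 3 without and 3 with TNF; symbols mark replicates 1, 2 and 3, and bars give the mean ± SD (n = 3). Each panel spans the same number of log2 units, so distances can be compared; in all 12 panels the groups do not overlap, with Cd69, Sele, Il6, Ccl5, Nos2, Slc7a11, Birc3 and Nfkbia higher and Car9, Akr1c14, Cxcl12 and Col12a1 lower with TNF.

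The genes of both TNF receptors did not pass the test. Tnfrsf1a, which encodes TNFR1, was at 10.72 to 10.92 on the control arrays and 10.66 to 10.76 on the TNF arrays (-0.11 ± 0.07, adjusted p = 0.517), and Tnfrsf1b, for TNFR2, differed by 0.22 ± 0.11 (adjusted p = 0.374). The transcript of Tnf itself was at 6.75 to 7.01 without and 6.66 to 6.97 with treatment. Of 39 measured genes of TNF receptor signalling 4 rose and 1 fell (median log2 difference 0.08). Fas, the death receptor, rose by 0.74 ± 0.10, and Tnfrsf11b, which encodes osteoprotegerin, a decoy receptor of the TNF family, fell by 0.77 on the log2 scale (1.70-fold). The calls of Traf3, Birc2 and Tnfsf15, which rose by 0.29, 0.37 and 0.47, were not stable: without control array 2 or 3 there were 2 or 1 genes higher, without TNF array 1 there was 1, and without control array 1 there were 2 lower.

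Of 23 measured NF-kB factors, feedback regulators and targets 9 rose and 0 fell in the limma fit, where 2 were lower at an unadjusted p under 0.05. The list's median was 0.16, and 39.1% of it was called against 3.13% of all genes. The count stayed at 9 without each of the 6 fibrin arrays. This and the other gene lists were chosen with earlier results of these data known, so such shares are not a test. Cd83 and Birc3 had the largest increases of the list, and 3 genes of IkB inhibitors were among the called members. Nfkbia, for IkB-alpha, was at 10.88, 10.77 and 10.86 without TNF and 11.62, 11.48 and 11.62 with it, a 1.66-fold increase (0.74 ± 0.07, adjusted p = 1.04e-04). Nfkbie, for IkB-epsilon, rose by 0.59 ± 0.08, Nfkbib, for IkB-beta, by 0.46 ± 0.08, and Tnip1, which encodes a partner of the deubiquitinase A20, by 0.66 ± 0.07. Birc3, an inhibitor of apoptosis that acts at the TNF receptor complex, was at 7.84 to 7.88 on the control arrays and 8.72 to 8.90 on the TNF arrays (0.93 ± 0.11, adjusted p = 5.29e-04). The survival gene Ier3 rose by 0.74 ± 0.10, and Cd83, a membrane protein of activated dendritic and other immune cells, by 0.99 ± 0.11. Among the factors themselves Nfkb2 rose by 0.48 ± 0.06, while Nfkb1 differed by 0.08 ± 0.07 and Rela by 0.10 ± 0.07, which did not pass. The interferon regulatory factor gene Irf1 rose by 0.50 ± 0.09 and lost its call when only the fibrin arrays were fitted. Sod2, the mitochondrial superoxide dismutase and a classical NF-kB target, was at 13.08 to 13.30 without and 13.24 to 13.34 with TNF (0.10 ± 0.08, adjusted p = 0.606).

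The promoters of Nfkbia and Nfkb2, and of Il6 and Cxcl2 from other lists, carry an NF-kB motif. They are shown to set the levels beside the sequence. Promoters run from 250 bases before to 50 bases after the start of the gene in RefSeq's annotation of the rat genome GRCr8, and 11805 of the tested genes have one. The motif, spelled GGG, any 2 bases and TTTCC, was searched on both strands, so that it also appears as its reverse complement, and it is in capitals. It lies 31 bases before the start of Nfkbia, 20 before that of Nfkb2 and 68 before that of Il6, and Cxcl2 holds it at 74 and again at 54 bases.
Nfkbia, chr6:78597023-78597322, minus strand: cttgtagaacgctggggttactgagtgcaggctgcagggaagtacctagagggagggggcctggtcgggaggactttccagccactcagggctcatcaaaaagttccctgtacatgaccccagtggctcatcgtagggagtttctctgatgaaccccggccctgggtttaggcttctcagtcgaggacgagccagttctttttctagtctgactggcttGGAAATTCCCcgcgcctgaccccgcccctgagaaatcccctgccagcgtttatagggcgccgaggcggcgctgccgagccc
Nfkb2, chr1:255108124-255108423, plus strand: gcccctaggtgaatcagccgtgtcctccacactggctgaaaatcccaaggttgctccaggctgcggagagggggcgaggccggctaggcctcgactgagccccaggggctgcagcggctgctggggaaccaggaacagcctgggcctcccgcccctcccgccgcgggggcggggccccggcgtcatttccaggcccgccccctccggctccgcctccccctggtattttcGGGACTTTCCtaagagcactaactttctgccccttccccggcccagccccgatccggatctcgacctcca
Il6, chr4:5894526-5894825, minus strand: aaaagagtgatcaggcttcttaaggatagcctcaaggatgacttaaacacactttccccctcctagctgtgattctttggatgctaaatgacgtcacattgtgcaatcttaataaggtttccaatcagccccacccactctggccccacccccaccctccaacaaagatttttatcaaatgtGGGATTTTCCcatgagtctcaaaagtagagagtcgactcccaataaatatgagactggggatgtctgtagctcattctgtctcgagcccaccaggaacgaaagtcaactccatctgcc
Cxcl2, chr14:17467206-17467505, minus strand: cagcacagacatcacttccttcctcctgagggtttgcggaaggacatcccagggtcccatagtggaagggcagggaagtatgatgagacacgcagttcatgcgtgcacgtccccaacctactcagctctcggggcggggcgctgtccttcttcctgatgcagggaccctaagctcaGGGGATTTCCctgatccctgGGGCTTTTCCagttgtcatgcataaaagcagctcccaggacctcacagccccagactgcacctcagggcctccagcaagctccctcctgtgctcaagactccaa
The motif was in the promoters of 12 of 191 genes that rose (6.28%), of 4 of 163 that fell (2.45%) and of 213 of all 11805 (1.80%). Among the 12 are Ccl9, Cxcl2, Ifngr2, Il6, Nfkb2, Nfkbia, Tap1 and Traf3. The looser spelling of GGG, any 3 bases and TTCC, which contains the first as a special case, was in 29 of the 191 (15.2%), in 12 of the 163 (7.36%) and in 6.07% of all. These spellings were kept after several had been tried, so the shares describe these promoters and are not a test. A match is a run of letters and no evidence of binding.

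Of 20 measured adhesion and junction genes 4 rose, Sele, Vcam1, Icam1 and Cd44, and 1 fell. That was 25% of the list, against 3.13% of all genes. Sele, for E-selectin, which activated endothelium displays to capture leukocytes, was at 6.46, 6.66 and 6.47 without TNF and at 8.18, 8.41 and 8.35 with it. These tight groups lay 3.45-fold apart (1.79 ± 0.13, adjusted p = 1.62e-05). Vcam1 and Icam1, ligands of leukocyte integrins, were already at high levels and rose less, by 0.54 ± 0.07 (from 12.36 to 12.55 up to 12.94 to 13.03) and by 0.53 ± 0.08 (from 10.59 to 10.85 up to 11.22 to 11.33). Cd44, the hyaluronan receptor, rose by 0.44 ± 0.07. Selp, for P-selectin, was at 8.27 to 8.68 without and 7.999 to 8.55 with TNF and did not pass (-0.16 ± 0.16). The member that fell was the tight junction gene Cldn5 (-0.48 ± 0.12, adjusted p = 0.0437), whose call was lost without control array 1, 2 or 3, without TNF array 2 or 3 and in the fit of the fibrin arrays alone.

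Chemokines are the secreted proteins that attract leukocytes. Of 34 measured, 7 rose, or 10 with the replicate number as a block, and 1 fell. Without the block 23.5% of them were called, against 3.13% of all genes. Of the 34 differences 28 were above 0, and their median was 0.36. Ccl5, which attracts T cells and monocytes, was at 8.01, 7.88 and 7.84 without TNF and at 10.03, 9.02 and 9.58 with it, a 3.10-fold increase (1.63 ± 0.20, adjusted p = 8.78e-04) that was largest on TNF array 1. The neutrophil attractant Cxcl2 went from 7.30 to 7.996 on the control arrays to 8.43 to 9.10 on the TNF arrays (1.07 ± 0.19, adjusted p = 0.0076). Ccl22 (1.07 ± 0.19), Ccl19, which guides dendritic cells and lymphocytes (1.03 ± 0.14), Ccl9 (0.98 ± 0.17) and Cxcl16 (0.52 ± 0.07) rose too. Ccl7, a chemokine of monocytes at 11.20 to 11.55 without TNF, rose by 0.72 ± 0.17 (adjusted p = 0.0356), a call lost with array weights and without control array 2 or 3 or TNF array 1 or 3. Cxcl1 differed by 0.67 ± 0.18 and did not pass without the block (limma adjusted p = 0.0704), but rose with it (adjusted p = 0.00313), without control array 1 or TNF array 3 and without the dimmest genes. Ccl2 differed by 0.59 ± 0.18 (adjusted p = 0.12) and Cxcl10 by 0.54 ± 0.27 (adjusted p = 0.382), the last with TNF array 2 at 11.05, below every control array, and the others at 12.02 and 12.24; without TNF array 2 Cxcl10 rose (0.90, adjusted p = 0.037). Ccl20 was at 6.53 to 6.68 without and 6.47 to 7.48 with TNF (0.35 ± 0.24). Cxcl12, the stromal chemokine that retains CXCR4-bearing cells, moved the other way: it was at 10.30, 10.85 and 10.87 without TNF and at 9.13, 9.59 and 9.41 with it, a 2.45-fold decrease (-1.30 ± 0.15, adjusted p = 5.28e-04).

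Among 30 interleukins and colony-stimulating factors 4 rose and 1 fell, with a median of 0.15. Beside Il6, its relative Lif rose by 0.99 ± 0.16, from 7.62 to 7.96 up to 8.62 to 9.18. Csf1, the growth factor of macrophages, rose by 0.62 ± 0.08 (10.54 to 10.63 without and 11.12 to 11.32 with TNF). Il33, an alarmin stored in the nuclei of stromal and endothelial cells, rose 2.58-fold (1.37 ± 0.17, adjusted p = 8.78e-04), from 6.996, 6.85 and 6.67 to 8.21, 8.49 and 7.91. Il1rl1, which encodes the IL-33 receptor ST2, fell 2.26-fold (-1.18 ± 0.20, adjusted p = 0.00546), from 9.87, 9.65 and 9.67 to 8.52, 8.90 and 8.24. The groups did not overlap for either the ligand or its receptor. Il16 fell by 0.72 on the log2 scale. Il1b was higher on every TNF array (8.42 to 8.87) than on any control array (8.03 to 8.28) but did not pass (0.48 ± 0.19, adjusted p = 0.236).

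Of 32 cytokine and chemokine receptors 2 rose and 3 fell (median -0.04). Ifngr1, a chain of the interferon-gamma receptor, rose by 0.49 ± 0.07. The other chain, Ifngr2, rose by 0.31, and its call was lost without TNF array 1 or 2, without any of the control arrays and with the fibrin arrays alone, so that 1 receptor rose in those fits. Besides Il1rl1, the decoy receptor gene Il13ra2 (-0.79 ± 0.13) and the chemokine receptor gene Ccr1 (-0.90 ± 0.15) fell; both were at low levels, with Ccr1 at 4.70 to 5.03 without TNF. The mean level of interferon-response genes was 9.62 to 9.71 on the control arrays and 9.54 to 10.08 on the TNF arrays. Of 38 measured, 1 rose, Irf1, and 0 fell, with 6 higher and 0 lower at an unadjusted p under 0.05 in the limma fit. The antiviral GTPase gene Mx1 was at 11.16, 11.22 and 11.13 without TNF and at 11.55, 11.04 and 11.83 with it (0.30 ± 0.27, adjusted p = 0.665), and the factor gene Irf7 at 11.19 to 11.32 and 10.96 to 11.46 (0.01 ± 0.24). TNF array 2 was the lowest of all 6 arrays for both genes, and without it 7 of the 38 rose.

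Genes of antigen processing, which interferons also induce, gave 5 increases and 0 decreases among 19 measured, with 1 lower at an unadjusted p under 0.05 in the limma fit and a median of 0.16. Psmb10, a catalytic subunit of the immunoproteasome, rose by 0.59 ± 0.08, from 8.51 to 8.67 up to 9.01 to 9.29. Less stable were the calls of the other immunoproteasome subunits Psmb8 (0.63 ± 0.14) and Psmb9 (0.48 ± 0.09), the activator Psme2 (0.42) and the peptide transporter Tap1 (0.34 ± 0.07). Each was lost when any 1 of several arrays was left out. Without control array 2 or 3 or TNF array 1 the count was 1, without TNF array 3 it was 2 and without control array 1 it was 3. Tap1 also lost its call with the replicate number as a block. Among 17 pattern recognition genes 2 rose, Nod1 and Casp4, and 1 fell, Myd88, and all 3 calls were lost without control array 2 or 3 or TNF array 1 or 3, those of Nod1 and Myd88 also without control array 1 that of Nod1 without TNF array 2 and that of Myd88 with the replicate block. Of 18 complement genes 0 rose and 2 fell, with 1 higher at an unadjusted p under 0.05 in the limma fit. The 2 were C1qc and Cfd; without control array 3 or TNF array 1 or 3 neither was called, and without control array 2 only Cfd was; with the replicate block 1 complement gene rose.

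Acute phase and antiprotease genes moved in either direction, with 2 of 21 higher and 2 lower. Orm1, for the acid glycoprotein orosomucoid, was at 10.27, 9.97 and 9.59 without TNF and at 11.69, 10.83 and 11.06 with it (1.25 ± 0.23, adjusted p = 0.00911). The pentraxin gene Ptx3, a soluble pattern recognition molecule of vessels, rose by 1.06 ± 0.12 (9.89 to 9.94 without and 10.76 to 11.12 with TNF). The metalloreductase gene Steap4, also a pericyte marker, fell by 1.03 ± 0.18 on the log2 scale, and the abundant serpin gene Serpina3n by 0.43 (13.04 to 13.11 without and 12.60 to 12.70 with TNF). Hpx, for hemopexin, showed the widest spread between control arrays of these genes, at 11.90, 11.39 and 9.66, and did not pass (0.11 ± 0.56). Slpi, a secreted protease inhibitor, differed by 0.22 ± 0.16.

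Transcripts of the inducible nitric oxide synthase and of the enzyme that recycles its substrate rose. Nos2, the inducible synthase, was at 8.56, 8.65 and 8.76 without TNF and at 9.78, 9.91 and 10.21 with it, a 2.48-fold increase (1.31 ± 0.14, adjusted p = 4.61e-04). Ass1, the argininosuccinate synthase that remakes arginine from citrulline, rose 2.22-fold (1.15 ± 0.14), from 6.76 to 7.12 up to 8.05 to 8.19. Cav1, for caveolin, which binds the endothelial synthase, fell by 0.49 on the log2 scale; of 18 genes of nitric oxide and arginine handling 2 rose and 1 fell, against 3 that fell without control array 1 or with the replicate block and 2 without TNF array 2. In prostanoid and leukotriene synthesis 2 of 26 rose and 2 fell. Ptges, the inducible prostaglandin E synthase, rose by 0.69 ± 0.13 (9.43 to 9.59 without and 10.14 to 10.30 with TNF), a call lost without TNF array 3. Ptgs2, the cyclooxygenase that feeds it, was at 9.03 to 9.64 without and 8.84 to 9.37 with TNF (-0.17 ± 0.17, adjusted p = 0.698). The receptor gene Ptgfr fell by 0.59 on the log2 scale. The calls of Ptgir, which rose, and Hpgds, which fell, were both lost without control array 2 or 3, and that of Hpgds also without TNF array 1.

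NRF2 is the transcription factor of the response to oxidants and electrophiles. Of 37 measured antioxidant and NRF2 target genes 12 rose, 1 fell and 24 did not pass, with a median of 0.22. The called share was 35.1%, against 3.13% of all genes. Of the 12 increases 10 held in every alternative. Those of Srxn1 and Blvrb were both lost without control array 1 or 2 or TNF array 1 or 3. Slc7a11, the cystine transporter that feeds glutathione synthesis, was at 9.32, 9.37 and 9.25 without TNF and at 10.40, 10.26 and 10.59 with it (1.10 ± 0.09, adjusted p = 7.55e-05). Nqo1, a quinone reductase, was at 11.31, 11.03 and 10.52 without TNF and at 12.11, 11.85 and 11.83 with it (0.98 ± 0.17, adjusted p = 0.00621). The thioredoxin reductase gene Txnrd1 (0.51 ± 0.06), the glutathione reductase gene Gsr (0.43 ± 0.07), the glutathione transferase genes Gstm1 (0.62 ± 0.08), Gsta1 (0.58 ± 0.10) and Gstp1 (0.43 ± 0.07), the pentose phosphate enzymes Taldo1 (0.61 ± 0.09) and Tkt (0.40 ± 0.07) and the haem transporter gene Slc48a1 (0.55 ± 0.08) rose. Hmox1, the haem oxygenase of the same list, was at 11.50 to 11.94 without and 11.89 to 12.10 with TNF and did not pass (0.26 ± 0.15). Gpx3, an extracellular glutathione peroxidase, was the member that fell (-0.86 ± 0.12). The promoter of Gstp1 is shown because it holds the antioxidant response element spelled TGACTCAGC, searched on both strands and printed in capitals, 61 bases before the gene's start.
Gstp1, chr1:210769656-210769955, minus strand: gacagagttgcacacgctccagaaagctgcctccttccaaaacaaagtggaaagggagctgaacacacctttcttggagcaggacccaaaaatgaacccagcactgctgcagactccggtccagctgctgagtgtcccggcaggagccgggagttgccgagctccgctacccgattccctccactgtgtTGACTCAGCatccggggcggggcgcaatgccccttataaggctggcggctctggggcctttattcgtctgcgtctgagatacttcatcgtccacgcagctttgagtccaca
That spelling was in 47 of 11805 promoters (0.398%), in 3 of the 191 genes that rose (Cyp26b1, Gstp1 and Pir) and in 0 of the 163 that fell, a description with no test; Pir is named only because it is 1 of the 3.

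Other stress genes moved singly. Gdf15, a secreted stress cytokine, was at 8.25, 8.31 and 8.18 without TNF and at 9.41, 9.04 and 9.44 with it, a 2.07-fold increase (1.05 ± 0.12, adjusted p = 5.29e-04), and it was the only one of 36 integrated stress response genes to rise. Vldlr, which fell in the same list (-0.43), lost its call without control array 2 or 3, without any TNF array and with the fibrin arrays alone, and 2 members fell without control array 1. Cdkn1a, the cell cycle inhibitor p21, rose by 0.81 ± 0.11 (8.51 to 8.78 without and 9.31 to 9.57 with TNF), and was the only called gene of 36 in the cell cycle list, where 2 rose with the replicate block. Mdm2, the ubiquitin ligase of p53 that p53 itself induces, rose by 0.63 ± 0.11; with Fas and Birc3 it made 3 of the 5 increases among 30 genes of cell death and survival, and without control array 2 or 3 or TNF array 1 there were 3. The dual-specificity phosphatase gene Dusp2 rose by 0.79 ± 0.10 among 27 immediate early genes, of which 3 rose, and 1 did so without control array 2 or TNF array 1 or 3. Tf, for the iron carrier transferrin, rose by 0.97 ± 0.15 as the only called gene of 22 of metal handling.

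Genes of steroid and xenobiotic metabolism were called in both directions, 6 higher and 7 lower of 36, with a median of -0.06. The called share was 36.1%, against 3.13% of all genes. Those that fell included the aldo-keto reductases Akr1c14, Akr1c15 (-0.79 ± 0.10) and Akr1c19 (-0.62 ± 0.11). They are genes of the same family, and whether their probes cross-react was not tested. The sulfotransferase gene Sult1a1 was at 6.93, 7.22 and 7.53 without TNF and at 5.22, 5.58 and 5.57 with it, a 3.40-fold decrease (-1.77 ± 0.19, adjusted p = 3.78e-04). Aldh3a1, an aldehyde dehydrogenase, fell by 2.34-fold (-1.23 ± 0.13). Akr1b8, another aldo-keto reductase, rose by 0.68 ± 0.09, Hsd11b1, which regenerates active glucocorticoid, by 0.41 ± 0.07 (11.75 to 11.82 without and 12.15 to 12.25 with TNF), and Cyp26b1, which degrades retinoic acid, by 0.62 ± 0.09.

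Hypoxia and glycolysis genes lay lower with TNF as a list, though few passed. Of 42 measured, 38 were below 0, the median was -0.17 against 0.01 over all genes, and 5 fell and 1 rose. At an unadjusted p under 0.05 there were 19 lower and 2 higher. Beside Car9, Ndrg1 fell by 0.80 ± 0.12 on the log2 scale (10.71 to 11.13 without and 10.02 to 10.36 with TNF). The glycolytic genes Pfkl (-0.40) and Aldoc (-0.60) and the kinase gene Pdk1 (-0.56) were called, but without control array 2 or 3 or TNF array 1 or 3 only 2 members fell, against 9 without control array 1 and 10 with the replicate number as a block. Hif1a, the oxygen-regulated factor itself, rose by 0.28 ± 0.06, and lost its call without any control array, without TNF array 2 or 3 and with the replicate block (highest adjusted p among the 14 alternatives 0.161). The glucose transporter gene Slc2a1 (-0.03 ± 0.10) and Vegfa (-0.17 ± 0.15) did not pass. Vegfa was at 8.28, 8.79 and 8.91 without TNF and at 8.46, 8.56 and 8.43 with it, so the groups overlapped, control array 1 was the lowest of the control arrays for both Vegfa and Car9. The promoter of Car9 holds the core of the hypoxia response element, ACGTG, in capitals as its reverse complement just after the gene's start.
Car9, chr5:62558774-62559073, plus strand: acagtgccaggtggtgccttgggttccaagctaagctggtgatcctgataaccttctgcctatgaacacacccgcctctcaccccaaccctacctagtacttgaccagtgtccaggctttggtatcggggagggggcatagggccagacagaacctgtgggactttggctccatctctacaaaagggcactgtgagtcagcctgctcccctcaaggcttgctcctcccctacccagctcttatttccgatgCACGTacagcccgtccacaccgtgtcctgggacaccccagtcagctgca
This short core was in 22.8% of all 11805 promoters, in 41 of the 191 genes that rose (21.5%) and in 20 of the 163 that fell (12.3%).

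**Figure D3:**
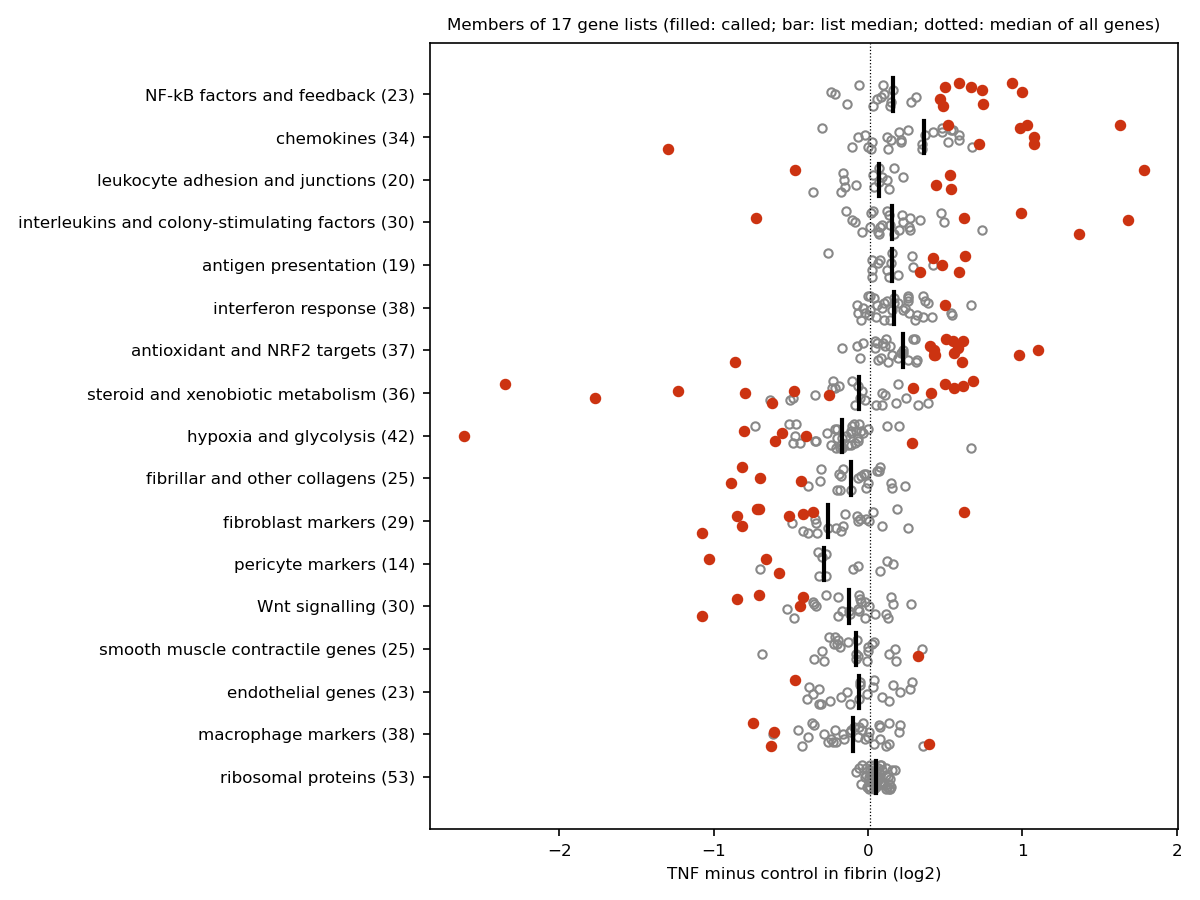
Log2 differences between TNF and control in fibrin for the measured members of 17 gene lists, with the number of members in brackets; filled points passed the test, open points did not, thick bars are list medians and the dotted line is the median of all genes (0.01). NF-kB, chemokine and antioxidant lists lie to the right with medians of 0.16, 0.36 and 0.22, and hypoxia, fibroblast and pericyte lists to the left with medians of -0.17, -0.26 and -0.29.

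Called collagens and matrix glycoproteins were all lower with TNF in this fit; with the replicate block 1 glycoprotein gene rose. Of 25 fibrillar and other collagens 4 fell and 0 rose, with 1 higher at an unadjusted p under 0.05 in the limma fit. The 4 were 16% of the list, against 1.47% of all genes called lower. With the replicate number as a block 7 fell. Col3a1, a main fibrillar collagen of the vessel wall, was at 12.05, 12.32 and 12.36 without TNF and at 11.28, 11.65 and 11.69 with it (-0.70 ± 0.12, adjusted p = 0.00755). Col12a1, which binds fibrils, was at 7.27 to 7.29 without TNF and at 6.11, 6.75 and 6.32 with it (-0.89 ± 0.14), and Col14a1 fell by 0.82 on the log2 scale; the call of Pcolce was lost without control array 2 or 3, without any TNF array and with array weights. Col1a1, the main collagen of fibroblasts, was lower on every TNF array (12.27 to 12.65) than on any control array (12.67 to 12.98) and did not pass without the block (-0.39 ± 0.13, adjusted p = 0.136), but fell with it (adjusted p = 0.0392). Among 30 matrix glycoproteins and proteoglycans 3 fell and 0 rose, with 2 higher at an unadjusted p under 0.05 in the limma fit. The microfibril gene Mfap5 fell by 0.72 ± 0.08 on the log2 scale; Omd and Ogn were the others, and 1 fell without control array 2, 6 without TNF array 2 and 5 with the replicate block.

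Of 34 matrix proteases and inhibitors 3 rose and 2 fell (14.7% called, against 3.13% of all genes). Mmp3, stromelysin, which cleaves many matrix proteins, was at 10.97, 10.48 and 9.96 without TNF and at 11.99, 11.96 and 11.52 with it, a 2.56-fold increase (1.35 ± 0.20, adjusted p = 0.00313). The proteoglycan-cleaving genes Adamts7 (0.68 ± 0.08) and Adamts4 (0.59 ± 0.11) rose, the latter not without control array 3. Mmp9 (0.53 ± 0.18, adjusted p = 0.171) and the collagenase gene Mmp13 (0.49 ± 0.28, adjusted p = 0.456) did not pass; the control arrays of Mmp13 spread from 10.46 to 11.36. Timp3, a matrix-bound inhibitor of metalloproteinases, was at 10.38, 10.88 and 11.03 without TNF and at 9.93, 10.05 and 9.91 with it (-0.80 ± 0.15, adjusted p = 0.00934), a call lost without control array 2. The other member to fall, the protease gene Mmp16 (-0.36), was not called without TNF array 1, 2 or 3 or control array 2 or 3, nor with the replicate block (adjusted p = 0.0579).

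The plasminogen activator genes Plau and Plat did not pass. Plau, for urokinase, was at 10.76 to 11.26 without and 11.03 to 11.38 with TNF (0.15 ± 0.15), and Plat, for tissue plasminogen activator, differed by 0.11 ± 0.11. The clotting initiator gene F3 was at 9.70 to 9.77 without and 9.49 to 9.96 with TNF (0.01 ± 0.10). Of 31 genes of fibrinolysis and clotting 2 rose and 4 fell (19.4% called, against 3.13% of all genes). Tfpi2, an inhibitor of plasmin and other serine proteases, was at 9.55, 8.69 and 8.82 without TNF and at 10.60, 9.98 and 10.18 with it (1.23 ± 0.24, adjusted p = 0.0126), a call lost without control array 2 or 3 or TNF array 1. The anticoagulant receptor gene Thbd, for thrombomodulin, rose by 0.77 ± 0.16, a call lost without control array 3 or TNF array 1 or 2, so that 0 of the 31 rose without control array 3 or TNF array 1. Gas6, a vitamin K-dependent ligand of TAM receptors, fell by 0.40 on the log2 scale (12.33 to 12.42 without and 11.90 to 12.05 with TNF); it was the only one to fall without control array 2 or 3 or TNF array 1 or 3. Itga2, the alpha-2 subunit of a collagen-binding integrin, was at 8.81, 8.70 and 8.61 without TNF and at 9.76, 9.64 and 10.04 with it, a 2.15-fold increase (1.11 ± 0.12, adjusted p = 4.15e-04). It was the only one of 19 integrin and collagen receptor genes to be called (5.26%, against 3.13% of all genes). Without TNF array 2, and with the replicate block, 1 gene of the list fell.

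Among growth factor genes of vessel outgrowth, several of the insulin-like growth factor system changed. Igf1 was at 7.62, 7.83 and 7.87 without TNF and at 7.21, 7.08 and 6.73 with it (-0.77 ± 0.13, adjusted p = 0.00482). The binding proteins split: Igfbp3 (-0.76 ± 0.12) and Igfbp4 (-0.82 ± 0.14) fell, and Igfbp5 rose by 0.89 ± 0.15, from 8.47 to 8.91 up to 9.46 to 9.79. Angpt1, which activates Tie2 on endothelium, was at 7.37 to 7.55 without and 7.77 to 8.10 with TNF (0.52 ± 0.12, adjusted p = 0.0356), a call lost without any control array and without TNF array 2 or 3, while its antagonist Angpt2 differed by -0.03 ± 0.07. The lymphatic growth factor gene Vegfd fell by 0.70 on the log2 scale, a call lost with the fibrin arrays alone. In all, 3 of 42 angiogenic ligands and receptors rose, among them Ereg, described above, and 4 fell. In the TGF-beta and BMP list 1 of 32 rose and 3 fell, or 5 with the replicate block. Fst, for the activin antagonist follistatin, was at 8.57, 8.40 and 7.94 without TNF and at 9.35, 9.50 and 9.39 with it (1.10 ± 0.16, adjusted p = 0.00183). Tgfb3 fell by 0.81 on the log2 scale, a call lost with the fibrin arrays alone, and Tgfbi, a matrix protein that TGF-beta induces, by 0.46.

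Among Wnt genes 5 of 30 listed members fell and 0 rose, with 1 higher at an unadjusted p under 0.05 in the limma fit. The 5 were 16.7% of the list, against 1.47% of all genes called lower. Sfrp2, a secreted Wnt modulator, was at 9.91, 9.61 and 9.50 without TNF and at 8.57, 9.02 and 8.20 with it (-1.08 ± 0.18, adjusted p = 0.00472). The calls of Sfrp4, Fzd2, Fzd4 and Dkk2 were each lost when any 1 of several arrays was left out. Without control array 2 only Sfrp2 of this list fell, against 2 members without control array 3 or TNF array 1 or 3. The ligand gene Wnt16, which fell and is described above, is not on this list. In the Notch list 1 of 18 fell and 0 rose, with 0 higher at an unadjusted p under 0.05 in the limma fit. It was Notch3 (-0.58), a receptor of mural cells; it was not called without control array 2 or 3 or TNF array 1 or 3, and 2 genes fell without TNF array 2.

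Marker genes of fibroblasts and pericytes were called mainly on the lower side. Of 29 fibroblast markers 8 fell and 1 rose (median -0.26, 31% called against 3.13% of all genes). Among those that fell were Mfap5, Col14a1 and Sfrp2, described above. The number that fell was 3 without control array 2 and 5 without control array 3 or TNF array 1 or 3. The defining receptor gene Pdgfra was at 11.16 to 11.37 without and 11.16 to 11.46 with TNF (0.03 ± 0.10), and the mesenchymal factor gene Twist2 rose by 0.62 ± 0.09. The mean level of the 29 markers was 8.35 to 8.40 on the control arrays and 8.06 to 8.16 on the TNF arrays. Of 14 pericyte markers 3 fell and 0 rose (21.4% called, median -0.29), with 0 higher at an unadjusted p under 0.05 in the limma fit. Steap4 alone was called without control array 2 or 3 or TNF array 1. The list's mean level was 8.06 to 8.21 without and 7.73 to 7.91 with TNF.

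Of the endothelial, smooth muscle and macrophage lists 4.35%, 4% and 10.5% of members were called, against 3.13% of all genes. Of 23 endothelial genes 1 fell, Cldn5, and 0 rose, with 1 higher at an unadjusted p under 0.05 in the limma fit; their mean level was 8.13 to 8.39 without and 8.06 to 8.29 with TNF, so the groups overlapped while Sele rose. Of 25 smooth muscle genes 1 rose, Cnn3, and 0 fell, with 3 lower at an unadjusted p under 0.05 in the limma fit, and 0 rose without control array 2 or 3 or TNF array 3. Myh11 differed by -0.21 ± 0.12. Among 38 macrophage markers 3 fell and 1 rose, or 6 fell without TNF array 2. The factor gene Maf fell by 0.75 ± 0.12 on the log2 scale and the lectin gene Clec4a by 0.63 (5.85 to 5.98 without and 5.19 to 5.43 with TNF). Cd68, a lysosomal protein of macrophages, rose by 0.39 ± 0.09, a call lost with the replicate block and without control array 1, 2 or 3 or TNF array 1 or 3. The scavenger receptor genes Cd163 (-0.62 ± 0.25, adjusted p = 0.256) and Mrc1 (-0.35 ± 0.19, adjusted p = 0.419) did not pass, although Cd163 fell without TNF array 2 (-0.92, adjusted p = 0.0417). The macrophage list's mean level was 7.77 to 7.98 without and 7.67 to 7.80 with TNF.

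Cd69 and Cd83 are also on marker lists of T and NK cells and of dendritic cells. Each was the only called member of its list, of 22 and of 10, and the mean levels of those lists were 4.54 to 4.69 and 4.95 to 5.03 on the control arrays and 4.68 to 4.78 and 5.09 to 5.19 on the TNF arrays. Several lists gave 0 calls in the limma fit. For 53 ribosomal protein genes 2 were higher and 0 lower at an unadjusted p under 0.05 (median 0.05), and for 47 oxidative phosphorylation genes 4 were higher and 0 lower (median 0.02), although 1 of the latter rose without control array 1 or TNF array 2 and with the replicate block. For 14 circadian genes 0 were higher and 3 lower at an unadjusted p under 0.05, where 2 fell with the replicate block and 1 without control array 1. The unadjusted counts were 1 higher and 0 lower of 15 neutrophil markers, 0 and 1 of 7 B cell markers, 1 and 0 of 11 mast cell markers, 2 and 2 of 8 lymphatic markers and 2 and 0 of 10 red cell and platelet markers. Of the lymphatic markers 1 fell without control array 2, and 1 red cell or platelet marker rose without control array 1 or TNF array 2 and with the replicate block. Lists of hyaluronan (1 of 17, Cd44, with 1 lower without control array 2 or TNF array 2 and with the block), ER chaperones (1 of 19, Sdf2l1), Schwann cell (1 of 14, Mal), adipocyte (1 of 17, Cfd) and cholesterol genes (1 of 23, Mylip) held 1 call each. The calls of Sdf2l1, Mal and Mylip were all lost without control array 2 or 3 or TNF array 1 or 3, that of Cfd without control array 3 or TNF array 1 or 3, and 1 cholesterol gene rose without TNF array 3 or with the replicate block, with which 1 Schwann cell gene fell.

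Whether the response was particular to fibrin was tested as the difference between the TNF effects in fibrin and in collagen, over the same 14324 genes. It passed for 177 genes (1.24%), with the effect in fibrin higher for 53 (0.37%) and lower for 124 (0.866%). It was 117 or 103 without collagen TNF array 1 or 2 and 112 without fibrin control array 2; the 53 became 29 to 33 also without collagen control array 2, collagen TNF array 3 or fibrin control array 1. Of the 237 genes that rose in fibrin, 18 had a higher and 19 a lower effect there than in collagen, and of the 211 that fell, 27 had a lower effect and 4 a higher one. The genes that follow passed in all 19 alternatives of this test unless it is said otherwise.

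Sele rose in fibrin and did not pass the test in collagen, where it was at 5.98, 5.49 and 5.60 without TNF and at 5.54, 5.84 and 5.79 with it, an effect of 0.04 against 1.79 in fibrin (difference 1.75 ± 0.18, adjusted p = 4.82e-04). Gdf15 went in opposite directions, up by 1.05 in fibrin and down by 0.69 on the log2 scale in collagen (difference 1.74 ± 0.17, adjusted p = 4.34e-04). Cd83 differed by 1.18 ± 0.15 between the gels, Csf1 by 0.66 ± 0.11, and the glutathione transferases Gstm1 and Gstp1 by 0.67 ± 0.11 and 0.54 ± 0.10. For Cd69 the difference was 1.53 ± 0.29 (adjusted p = 0.0249), a call lost without collagen control array 2, collagen TNF array 2 or 3, fibrin control array 2 or fibrin TNF array 1.

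Car9 fell in fibrin and did not pass the test in collagen. Its TNF arrays in collagen were at 9.11, 9.43 and 9.69 against 8.23, 8.56 and 9.21 on the controls, and the difference of effects was -3.36 ± 0.46 (adjusted p = 0.00358). Aldh3a1 fell in fibrin and was at 7.73 to 7.83 with and 7.10 to 7.58 without TNF in collagen (difference -1.64 ± 0.18). Steap4 and Serpina3n fell in fibrin and rose in collagen, with differences of -2.11 ± 0.26 and -0.91 ± 0.10. The effects on Wnt16 (difference -1.23 ± 0.21) and Akr1c14 (-1.44 ± 0.21) were lower in fibrin than in collagen, where Akr1c14 also fell, while Akr1c15 fell in both gels and further in collagen (difference 0.86 ± 0.14).

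Another set rose in both gels but less in fibrin, from a higher untreated level. Nos2 was at 4.67 to 5.13 without TNF in collagen and at 8.16 to 8.61 with it, and its effect of 1.31 in fibrin was lower than that of 3.44 in collagen (difference -2.13 ± 0.20, adjusted p = 4.34e-04). The TNF arrays of Nos2 in collagen overlapped with its untreated arrays in fibrin, and these groups were not compared by a test. Orm1 (-2.96 ± 0.32), Ccl9 (-2.53 ± 0.24), Ccl7 (-1.95 ± 0.24), Mmp3 (-1.94 ± 0.29), Ccl19 (-1.86 ± 0.20), Fst (-1.62 ± 0.22), Ces1f (-1.46 ± 0.19), Ptges (-1.35 ± 0.18) and Ptx3 (-1.14 ± 0.16) had the same form. Hpx (-4.80 ± 0.79), Slpi (-4.07 ± 0.23), Scgb1b24 (-2.64 ± 0.35) and the complement gene C3 (-2.32 ± 0.23) rose in collagen and did not pass in fibrin; C3 fell there without TNF array 2 (-0.82, adjusted p = 0.00236). By contrast the effects of Il6 (1.68 in fibrin and 1.72 in collagen), Nfkbia (0.74 and 0.70), Vcam1 (0.54 and 0.57) and Sult1a1 (-1.77 and -1.80) were near equal, with differences of -0.04 ± 0.33, 0.04 ± 0.09, -0.03 ± 0.10 and 0.03 ± 0.26 that did not pass.

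**Figure D4:**
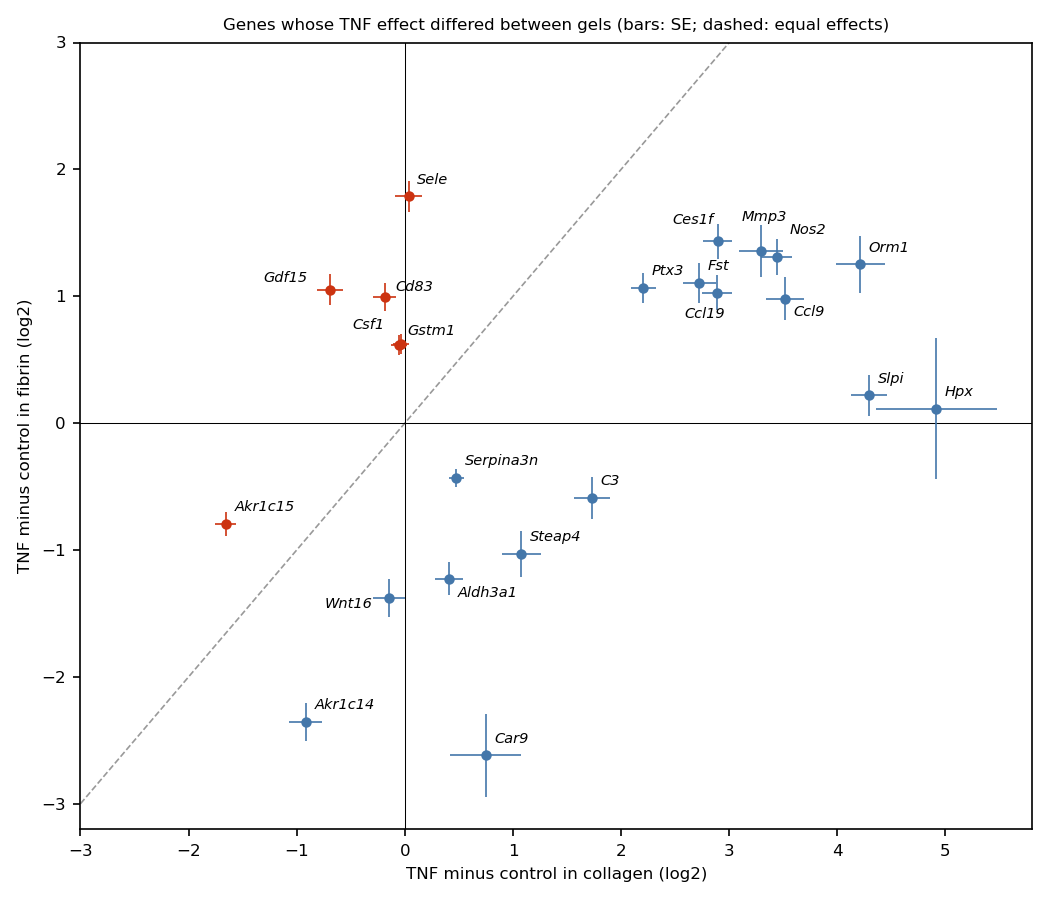
TNF effect in fibrin against TNF effect in collagen (log2, mean differences of 3 and 3 arrays, with SE bars) for chosen genes. They are part of the 31 named genes whose difference of effects passed the test in the fit and in all 19 alternatives. Angpt1, Ccl7, Cxcl16, Gstp1, Mmp9, Pfkl, Ptges and Scgb1b24 also passed and are not plotted. Points above the dashed line of equal effects (red) include Sele at 1.79 and 0.04 and Gdf15 at 1.05 and -0.69, and those below it (blue) include Car9 at -2.62 and 0.75 and Nos2 at 1.31 and 3.44.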

How the data were processed

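Expression was measured on 12 Affymetrix whole-transcript arrays, 1 per sample, in 4 groups of 3. The deposited values are log2 levels per probe set, from 1.44 to 14.07 with none missing; their summarisation and normalization by the authors are not given in the sources used here. Probe sets were named from the platform annotation: of 27342, 15097 had 1 gene, 323 several and 11922 none. A gene took its single-gene probe set with the highest average across all arrays, which gave 14324 genes; 499 genes had more than 1 probe set.

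A group-means model of all 12 arrays without a block was fitted with lmFit and eBayes (limma 3.58.1, R 4.3.3). TNF minus control in fibrin, the same in collagen and the difference of these effects were tested two-sided, with Benjamini-Hochberg adjustment over all genes and a threshold of 0.05. Values after ± are standard errors unless SD is stated. The p-values quoted for single genes are these limma p-values. Precision is limited by 3 arrays per group; the median SE was 0.094 for the effect in fibrin and 0.13 for the difference. On simulated data 73% of genes changed by 0.5 and 94% of those changed by 1 log2 unit were recovered for the fibrin comparison over 14324 genes, and 5.11% of calls were false. The simulation changed 200 genes and drew independent normal noise for each gene and array. It held no effects shared by an array or a replicate number, so it does not cover the dependence on single arrays seen here.

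The titles give the groups the same replicate numbers. Same-numbered control and TNF arrays in fibrin deviated together (r = 0.25, 0.14 and 0.16 across genes, which are not independent), so a fit with the number as a block was read as a paired one. Alternatives were the fibrin arrays alone, quantile normalization, median centring, no dim genes, a trended and robust prior, array weights, the block, other probe set rules and leaving out each array. Named genes included the 15 largest changes in each direction among called genes whose fibrin arrays did not overlap. The others were a written list of genes of interest, called members of 50 gene lists and the 8 largest differences between gels in each direction. Members and lists were chosen with earlier results of these data known. Motif spellings were kept after others had been seen. No scan date or other batch was used.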

Additional observations from a re-analysis of the deposited data

Results flagged for a closer look

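Genes named in the report are listed here where the TNF effect in fibrin differed from that in collagen by limma's test of the difference itself (adjusted p from 5.10e-06 to 0.0415). Values are the effect in fibrin minus the effect in collagen on the log2 scale, with 3 arrays in each of the 4 groups. Of these 48 genes, 31 passed in all 19 alternatives. Adamts4, Akr1c19, Ccl2, Ccl20, Cd69, Igfbp3, Il33, Mfap5, Ndrg1, Pdgfra, Pdk1, Penk, Pir, Ptgfr, Sod2, Tgfbi and Tkt lost the call without collagen TNF array 2 and without at least 1 other array, and Ccl20, Igfbp3, Penk, Ptgfr and Tgfbi also with the replicate block. No explanation for any of them was tested.

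In the immune and acute phase genes named here the effect in fibrin was mostly the lower one. The same held for all 177 genes that passed this test, with 124 lower and 53 higher in fibrin. The difference was -4.80 for Hpx, -4.07 for Slpi, -2.96 for Orm1, -2.64 for Scgb1b24, -2.32 for C3, -2.11 for Steap4, -1.14 for Ptx3 and -0.91 for Serpina3n. For chemokines it was -2.53 for Ccl9, -1.95 for Ccl7, -1.86 for Ccl19, -1.75 for Ccl20, -1.26 for Ccl2 and -0.57 for Cxcl16. It was -2.13 for Nos2, -1.35 for Ptges, -0.56 for the prostaglandin receptor gene Ptgfr and -0.62 for Sod2. Sele at 1.75, Cd69 at 1.53, Cd83 at 1.18, Il33 at 1.16 and Csf1 at 0.66 went the other way.

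Among matrix, growth factor and stromal genes the difference was -1.94 for Mmp3, -1.71 for Mmp9, -0.86 for Adamts4, -1.78 for Angpt1, -1.62 for Fst, -1.23 for Wnt16, -0.96 for Penk, -0.92 for Igfbp3, -0.60 for Tgfbi, -0.65 for Pdgfra and 0.57 for Mfap5. Hypoxia and glycolysis genes gave -3.36 for Car9, -0.85 for Pdk1, -0.84 for Ndrg1 and -0.79 for Pfkl.

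Metabolic and stress genes moved either way. The difference was -1.64 for Aldh3a1, -1.46 for Ces1f and -1.44 for Akr1c14, against 0.86 for Akr1c15, 0.75 for Akr1c19, 0.67 for Gstm1, 0.54 for Gstp1, 0.49 for Tkt, 0.83 for Pir and 1.74 for Gdf15.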

How the results depend on the processing

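The 448 genes called in fibrin (237 higher and 211 lower) became 230 (128 and 102) in a fit of the 6 fibrin arrays alone, and 341 genes were lower with a trended and robust prior. Leaving out 1 array at a time gave 237 to 539 genes, with 134 to 252 higher and 103 to 287 lower. For the difference between gels, 177 became 294 without the dimmest genes (108 higher in fibrin) and 339 with the trended prior (127 higher and 212 lower). Leaving out 1 array at a time gave 103 to 246, with 22 to 77 higher and 81 to 169 lower. The cause was not tested. With the replicate number as a block, 556 genes were called in fibrin (262 higher and 294 lower), 394 of them among the 448, and 208 for the difference. Other settings kept both counts within 1.5 times. Of the 146 named genes called in fibrin, 99 were called in every alternative, 47 were lost in at least 1 and 0 changed sign; the block kept 141 and lost 5. Of 36 named genes not called, 5 were called in at least 1 alternative and 12 changed sign in at least 1. The number of arrays limits these calls, and signal over background was not used here.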
